A study of Zea mays with 6 samples.

Results

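The genes described here are Mn1 (Zm00001d003776), SWEET4c (Zm00001d015912) and SUT1 (Zm00001d027854), grouped under the heading of sugar unloading into the maize kernel. They were chosen by gene ID and by no measured value, though with earlier results of these data known. All 3 were found among the 33051 genes listed for the series. The names were attached to the IDs when the genes were chosen. The tables give IDs alone, and 0 of the 32852 nuclear IDs could be looked up in the RefSeq gene table, so the identity of the 3 genes was not checked from the data. Messenger RNA was sequenced from kernels of the maize inbred line KN5585 at 10 days after pollination, in 3 libraries labelled ZmSUS1 transgenic and 3 libraries of a non-transgenic control. Both groups share the inbred background, the tissue and the age, and a single transgenic strain was sampled. The sources used here do not name the promoter that drives the transgene. Markers of the kernel's tissues could not be tied to IDs, so the labelled tissue was not checked against them.

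A growing kernel imports its carbon as sucrose, which leaves the maternal phloem at the kernel's base and crosses an extracellular space before it reaches the endosperm. Mn1 (Miniature1) encodes a cell wall invertase of the basal endosperm that splits this sucrose to glucose and fructose, and kernels that lack it stay small. SWEET4c encodes a transporter that moves the resulting hexoses into the endosperm at the same basal layer, and its loss also leaves poorly filled kernels. SUT1 encodes a sucrose-proton symporter and is best known in maize for loading sucrose into the phloem of leaves. SUS1 (Zm00001d047253), the gene of the transgene, encodes a sucrose synthase, which splits sucrose inside the cell. Whether this ID is SUS1 was likewise not checked from the data.

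Levels are given in FPKM (fragments scaled to gene length and library size), so that levels of different genes can be set side by side. Differences were tested with limma on log2(FPKM + 1) over the 20514 genes that averaged 1 FPKM or more, and called at a Benjamini-Hochberg adjusted p under 0.05 over all of them. A log2 fold change below 0 means a lower value in the libraries labelled transgenic, and on this scale the change of a gene near 1 FPKM is understated. Of the genes tested, 19.0% were called, 16.2% as lower and 2.88% as higher in the libraries labelled transgenic, and the median gene had a log2 fold change of -0.13. The number of genes called was 3907 with all libraries, but 2503 without transgenic replicate 2, 2308 without control replicate 1 and 2311 without control replicate 2. Summed FPKM ran from 1359750 to 1378940 per library. SUS1 itself stood at 155 ± 5.37 FPKM in the libraries labelled transgenic and 215 ± 5.58 FPKM in the control libraries (SD, n = 3 each). The ID given here as SUS1, the gene of the transgene, was thus lower, and not higher, in the libraries labelled transgenic. The reason was not tested, and the link of ID and name was not checked.

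Mn1, SWEET4c and SUT1 were all lower in the libraries labelled transgenic, and each of the 3 genes was called on the deposited values. In each gene all 3 libraries labelled transgenic lay below every control library, a pattern that 31.6% of all genes tested shared. The median log2 fold change of the 3 genes was -0.67, beside -0.13 over all genes tested. Whole kernels were sampled, so fewer cells of a type and less RNA per cell cannot be told apart.

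**Figure D1:**
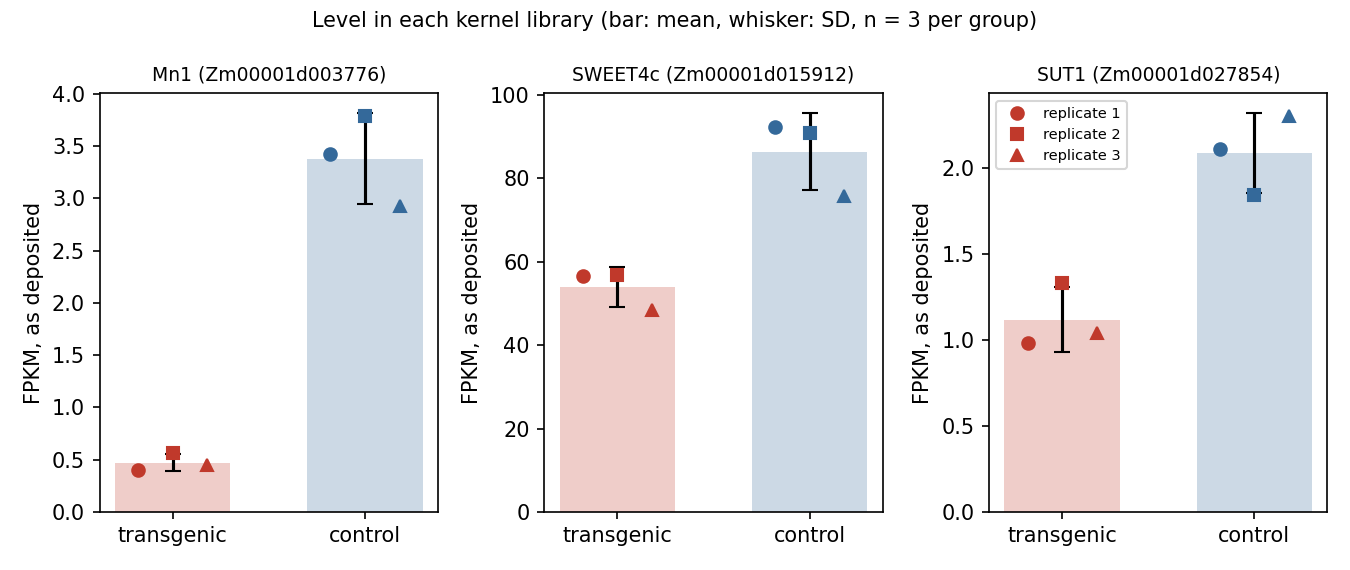
FPKM of Mn1, SWEET4c and SUT1 in each library, with the libraries labelled transgenic on the left and control on the right of each panel. Symbols are libraries by replicate number, bars are group means and whiskers are SD (n = 3), and in every panel the highest transgenic value (0.56, 56.7 and 1.33 FPKM) lies below the lowest control value (2.93, 75.7 and 1.84 FPKM).

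Mn1, the invertase gene, showed the largest difference of the 3. It was at 0.40, 0.56 and 0.45 FPKM in transgenic replicates 1 to 3, against 3.42, 3.79 and 2.93 FPKM in control replicates 1 to 3. The lowest control library was thus far above the highest transgenic one, while the spread within each group was small beside the gap of 2.37 FPKM. The means were 0.470 ± 0.0819 FPKM in the libraries labelled transgenic and 3.38 ± 0.431 FPKM in the control libraries (SD, n = 3 each), so the transgenic mean was 13.9% of the control mean, or 7.19-fold lower. Its log2 fold change was -1.57, with SE 0.133 and a 95% interval from -1.88 to -1.27 (limma, adjusted p = 0.000289). Only 0.414% of the genes tested had a lower log2 fold change. Among the 6267 other genes tested whose mean lay within 2-fold of that of Mn1, 33 had a lower one, and the median of these genes was -0.099.

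Zm00001d003776, given here as Mn1, was weakly detected in these kernels, at rank 17768 of 33051 by mean FPKM. This level is low for a gene known as the invertase of the basal endosperm at this stage, and whether the ID is that gene was not checked. Its mean over the libraries labelled transgenic was under 1 FPKM, and it entered the test through the control libraries. Without any filter on low values it was called as well (limma, adjusted p = 0.00115). The size of its change depends on the value added before the log: with 0.1 in place of 1 the log2 fold change was -2.61 (limma, adjusted p = 0.000474).

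SWEET4c, the hexose transporter gene, was by far the most abundant of the 3, at rank 1086 by mean FPKM. Its level was 56.6, 56.7 and 48.5 FPKM in transgenic replicates 1 to 3, against 92.4, 90.9 and 75.7 FPKM in control replicates 1 to 3. In both groups replicate 3 was the lowest, yet control replicate 3 still stood 18.96 FPKM above the highest transgenic library. The transgenic mean of 53.9 ± 4.73 FPKM was 62.5% of the control mean of 86.3 ± 9.24 FPKM (SD, n = 3 each). This is a log2 fold change of -0.67 (SE 0.0951), with a 95% interval from -0.89 to -0.45 (limma, adjusted p = 0.00280). A lower log2 fold change was found in 4.34% of all genes tested. Genes near the level of SWEET4c were often called lower, in 558 of 2029 cases (27.5%), beside 16.2% over all genes tested.

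SUT1, the sucrose symporter gene, had the lowest mean level of the 3, at rank 18526. It stood at 0.98, 1.33 and 1.04 FPKM in transgenic replicates 1 to 3 and at 2.11, 1.84 and 2.30 FPKM in control replicates 1 to 3. The groups did not overlap, but only 0.51 FPKM separated transgenic replicate 2 from control replicate 2. Means were 1.12 ± 0.187 FPKM in the libraries labelled transgenic and 2.08 ± 0.231 FPKM in the control libraries (SD, n = 3 each), a transgenic mean at 53.6% of the control mean. SUT1 had a log2 fold change of -0.54 (SE 0.133), with a 95% interval from -0.85 to -0.24 (limma, adjusted p = 0.0256). Of all genes tested, 7.22% had a lower log2 fold change, as did 494 of the 5265 genes tested near its level (9.38%). With 0.1 in place of 1 added before the log, the log2 fold change of SUT1 was -0.85 (limma, adjusted p = 0.0304). This call was lost without transgenic replicate 1 (limma, adjusted p = 0.0745), without transgenic replicate 3 (limma, adjusted p = 0.0674), without control replicate 1 (limma, adjusted p = 0.0774) and without control replicate 3 (limma, adjusted p = 0.0707), each time with 5 libraries in place of 6.

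Taken singly, each of the 3 genes gave p = 0.1 in the 2-sided exact permutation test of 3 against 3 libraries, which is the smallest value that test can give.

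**Figure D2:**
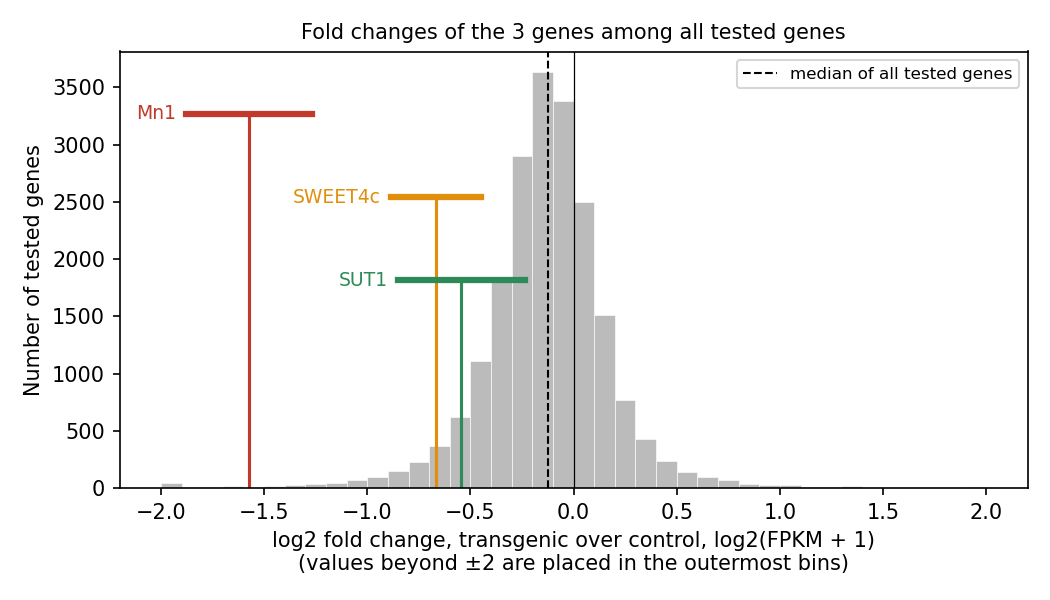
Number of tested genes by log2 fold change, transgenic over control, with the fold changes of Mn1, SWEET4c and SUT1 as vertical lines and their 95% intervals (limma) as horizontal lines. The dashed line is the median of all tested genes at -0.13, and Mn1 at -1.57 lies far out in the lower tail while SWEET4c at -0.67 and SUT1 at -0.54 lie nearer the bulk.

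Because the median gene itself was lower in the libraries labelled transgenic, the comparison was repeated relative to it, after each library was divided by the median ratio of its genes to their geometric mean. The size factors averaged 0.955 in the libraries labelled transgenic and 1.06 in the control libraries, and the median log2 fold change of all genes tested became 0.00067. In this comparison 13.6% of the genes were called, 7.36% as lower and 6.29% as higher.

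Mn1 and SWEET4c were again called lower relative to the median gene, and SUT1 was not. For Mn1 this gave a log2 fold change of -1.49 and an SE of 0.131 (limma, adjusted p = 0.000372), and the rescaled transgenic mean was 15.4% of the control mean. For SWEET4c it was -0.52 and the SE 0.0860 (limma, adjusted p = 0.00647), with a rescaled transgenic mean at 69.3% of the control mean. SUT1 stood at -0.45 with an SE of 0.134 and an unadjusted 95% interval from -0.76 to -0.15 (limma, adjusted p = 0.0610). Its rescaled means were 1.17 ± 0.193 in the libraries labelled transgenic and 1.97 ± 0.244 in the control libraries (SD, n = 3 each). The rescaled values of the groups still did not overlap in any of the 3 genes, as was so for 16.9% of all genes tested in the lower direction.

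Ratios of genes within a library do not depend on how the library was scaled, and they were used to ask whether the 3 genes differed from each other in their change. The order of the 2 weakly detected genes was not the same in the groups. In the libraries labelled transgenic SUT1 was above Mn1, at 2.45, 2.37 and 2.31 times its FPKM in replicates 1 to 3, whereas in the control libraries it was below Mn1, at 0.617, 0.485 and 0.785 times. On average the ratio of SUT1 to Mn1 was higher by 3.85-fold in the transgenic group (exact permutation test, p = 0.1, adjusted p = 0.2 over 6 ratios, n = 3 each). The log2 difference was 1.95, and 1.03 when 1 FPKM was added to both values.

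SWEET4c exceeded Mn1 by 142, 101 and 108 times in transgenic replicates 1 to 3, against 27.0, 24.0 and 25.8 times in control replicates 1 to 3. This ratio was higher by 4.52-fold in the transgenic group, with no overlap between the groups (exact permutation test, p = 0.1, adjusted p = 0.2, n = 3 each). Its log2 difference was 2.18, and 0.91 with 1 FPKM added to both values. Both ratios to Mn1 were thus higher in every transgenic library than in any control library, although 3 against 3 libraries cannot reach 0.05 in this test. The ratio of SUT1 to SWEET4c did overlap between the groups, at 0.0173 to 0.0235 in the libraries labelled transgenic and 0.0202 to 0.0304 in the control libraries (exact permutation test, p = 0.5, adjusted p = 0.5, n = 3 each). Its log2 difference was -0.23, and it was 0.12 when 1 FPKM was added to both values, so these data give no direction for the transporters relative to each other.

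**Figure D3:**
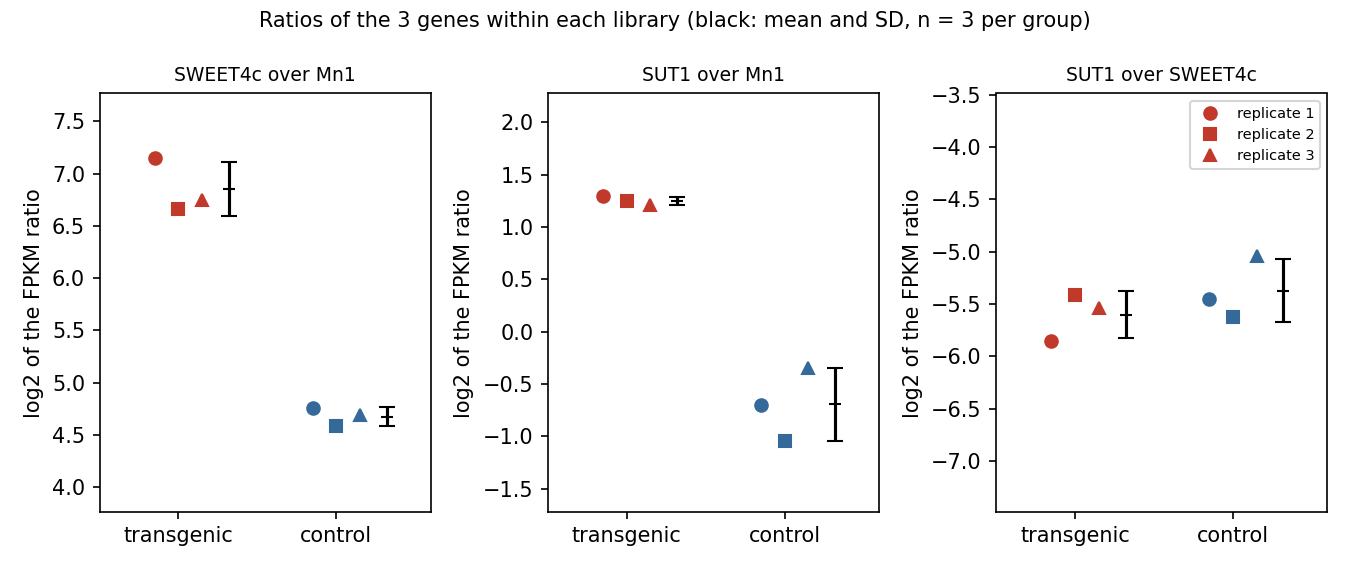
log2 of the FPKM ratio of SWEET4c to Mn1, SUT1 to Mn1 and SUT1 to SWEET4c within each library, with libraries labelled transgenic on the left and control on the right; all panels span the same number of log2 units. Symbols are libraries by replicate number and black marks are means with SD (n = 3); both ratios to Mn1 are higher in every transgenic library (means 6.85 and 1.25, against 4.68 and -0.70 in control), and the third overlaps.

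Set against SUS1 in the same library, Mn1 was lower by 5.19-fold in the transgenic group, and the groups did not overlap (exact permutation test, p = 0.1, adjusted p = 0.2 over 6 ratios, n = 3 each). This log2 difference was -2.38, and -1.10 with 1 FPKM added to both values. SWEET4c stood at 0.365, 0.380 and 0.303 of the SUS1 level in transgenic replicates 1 to 3 and at 0.431, 0.432 and 0.342 of it in control replicates 1 to 3. These values overlapped, with a mean log2 difference of -0.20 (exact permutation test, p = 0.3, adjusted p = 0.36, n = 3 each). Within each replicate number the transgenic library had the lower ratio, and the exact permutation within numbers gave p = 0.25, below which it cannot go. No label pairs the libraries by replicate number. The ratio of SUT1 to SUS1 overlapped as well, with a log2 difference of -0.43 (exact permutation test, p = 0.2, adjusted p = 0.3, n = 3 each) that was -0.069 with 1 FPKM added to both values. Its direction was not the same in every replicate number: it was 0.00892 in transgenic replicate 2 and 0.00876 in control replicate 2 (exact permutation within numbers, p = 0.5).

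Replicate 3 differed from replicates 1 and 2 in some of these genes. SWEET4c in replicate 3 was 0.855 of the mean of replicates 1 and 2 in the libraries labelled transgenic and 0.826 of it in the control libraries, a similar shift in both groups. Mn1 had 0.938 and SUT1 had 0.900 in the transgenic group, against 0.813 for Mn1 and 1.16 for SUT1 in the control group, so SUT1 moved in opposite directions. Without replicate 3 of both groups the log2 fold change was -1.64 for Mn1 (limma, adjusted p = 0.00212) and -0.68 for SWEET4c (limma, adjusted p = 0.00105). For SUT1 it was -0.47 (limma, adjusted p = 0.125).

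Genes whose ID numbers lie within 10 of a member were taken as likely neighbours in the genome, with up to 3 named for each by mean FPKM. Of these genes, 7 were tested near Mn1, 4 near SWEET4c and 9 near SUT1, and those not named are not described. Near SWEET4c, Zm00001d015914 had 15.2, 16.2 and 14.4 FPKM in transgenic replicates 1 to 3 and 27.1, 25.1 and 23.4 FPKM in control replicates 1 to 3. Its transgenic mean was 60.5% of its control mean, beside 62.5% for SWEET4c, and the log2 fold change was -0.69 (SE 0.0796; limma, adjusted p = 0.00114). Zm00001d015905 did not follow: it averaged 11.4 ± 1.32 FPKM in the libraries labelled transgenic and 11.2 ± 0.997 FPKM in the control libraries (SD, n = 3 each). Its log2 fold change was 0.018, with a 95% interval from -0.22 to 0.26 (limma, adjusted p = 0.923). Zm00001d015918 averaged 8.47 ± 0.370 FPKM in the libraries labelled transgenic and 10.00 ± 2.63 FPKM in the control libraries (SD, n = 3 each; limma, adjusted p = 0.476). Single libraries decided this value: Zm00001d015918 had 11.1, 7.0 and 11.9 FPKM in control replicates 1 to 3, and its log2 fold change of -0.19 was -0.40 without control replicate 2 (limma, adjusted p = 0.0381) and -0.058 without control replicate 3. The sources used here do not say what these IDs encode. Of the 3 members, 0 had the same values as another gene throughout, but how reads shared between related copies were assigned is not given.

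Near Mn1, the difference was not shared by all of the neighbours named here. Zm00001d003781 fell, with 17.9 ± 3.82 FPKM in the libraries labelled transgenic and 27.7 ± 1.94 FPKM in the control libraries (SD, n = 3 each; log2 fold change -0.62, limma, adjusted p = 0.0198), and its call was lost relative to the median gene (limma, adjusted p = 0.0589). Zm00001d003773 had 12.5 ± 2.43 FPKM in the libraries labelled transgenic and 13.4 ± 1.58 FPKM in the control libraries (SD, n = 3 each; limma, adjusted p = 0.662). Zm00001d003784 had 5.34 ± 0.195 FPKM in the libraries labelled transgenic and 6.65 ± 0.201 FPKM in the control libraries (SD, n = 3 each; limma, adjusted p = 0.0592). None of the 3 approached the 7.19-fold difference of Mn1.

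Near SUT1, Zm00001d027851 rose. It stood at 75.6 ± 6.43 FPKM in the libraries labelled transgenic and 58.2 ± 1.80 FPKM in the control libraries (SD, n = 3 each; log2 fold change 0.37, limma, adjusted p = 0.0105). Zm00001d027861 averaged 74.0 ± 1.55 FPKM in the libraries labelled transgenic and 74.3 ± 1.95 FPKM in the control libraries (SD, n = 3 each; limma, adjusted p = 0.948). Zm00001d027856 averaged 8.68 ± 0.398 FPKM in the libraries labelled transgenic and 10.00 ± 0.892 FPKM in the control libraries (SD, n = 3 each; limma, adjusted p = 0.195).

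The genes most like each member were sought among those with a mean of 10 FPKM or more, by the root-mean-square difference between log2(FPKM + 1) profiles over the 6 libraries after each was centred on its own mean. This is a description of likeness, made mostly by the group difference, and carries no test. For Mn1 the closest was Zm00001d052433 at 0.060 log2 units, with 4.91, 4.99 and 4.47 FPKM in transgenic replicates 1 to 3 and 17.1, 19.0 and 14.9 FPKM in control replicates 1 to 3. Zm00001d032475 at 0.083 and Zm00001d050635 at 0.099 came next. The likeness of these 3 to Mn1 holds on the log2(FPKM + 1) scale, which compresses the change of a gene near 1 FPKM. Their transgenic means were 28.1%, 34.7% and 29.5% of control, against 13.9% for Mn1, and with 0.1 added in place of 1 the log2 fold change was -1.80 for Zm00001d052433 and -2.61 for Mn1. Zm00001d050635 was the most abundant of the group, at 39.9 ± 3.70 FPKM in the libraries labelled transgenic and 135 ± 6.67 FPKM in the control libraries (SD, n = 3 each).

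Closer matches were found for SWEET4c, with Zm00001d015328 at 0.025, Zm00001d030617 at 0.033 and Zm00001d003938 at 0.036 log2 units. Zm00001d015328 had 32.4, 31.7 and 28.0 FPKM in transgenic replicates 1 to 3 and 51.6, 51.0 and 44.0 FPKM in control replicates 1 to 3. It was picked for its likeness to SWEET4c, so that it shared both the difference between the groups and the low replicate 3 follows from the choice. For SUT1 the closest were Zm00001d005573 and Zm00001d003062 at 0.057 and Zm00001d052961 at 0.058 log2 units. Here too the likeness depends on the scale, since their transgenic means were 68.9%, 68.4% and 63.1% of control, against 53.6% for SUT1. With 0.1 added in place of 1 their log2 fold changes were -0.54, -0.55 and -0.66, and that of SUT1 was -0.85. Among the members themselves, the profiles of SWEET4c and SUT1 differed by 0.18 log2 units, those of Mn1 and SWEET4c by 0.46 and those of Mn1 and SUT1 by 0.53. These distances depend on the scale as well: with 0.1 added in place of 1 the log2 fold changes were -2.61 for Mn1, -0.68 for SWEET4c and -0.85 for SUT1.

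**Figure D4:**
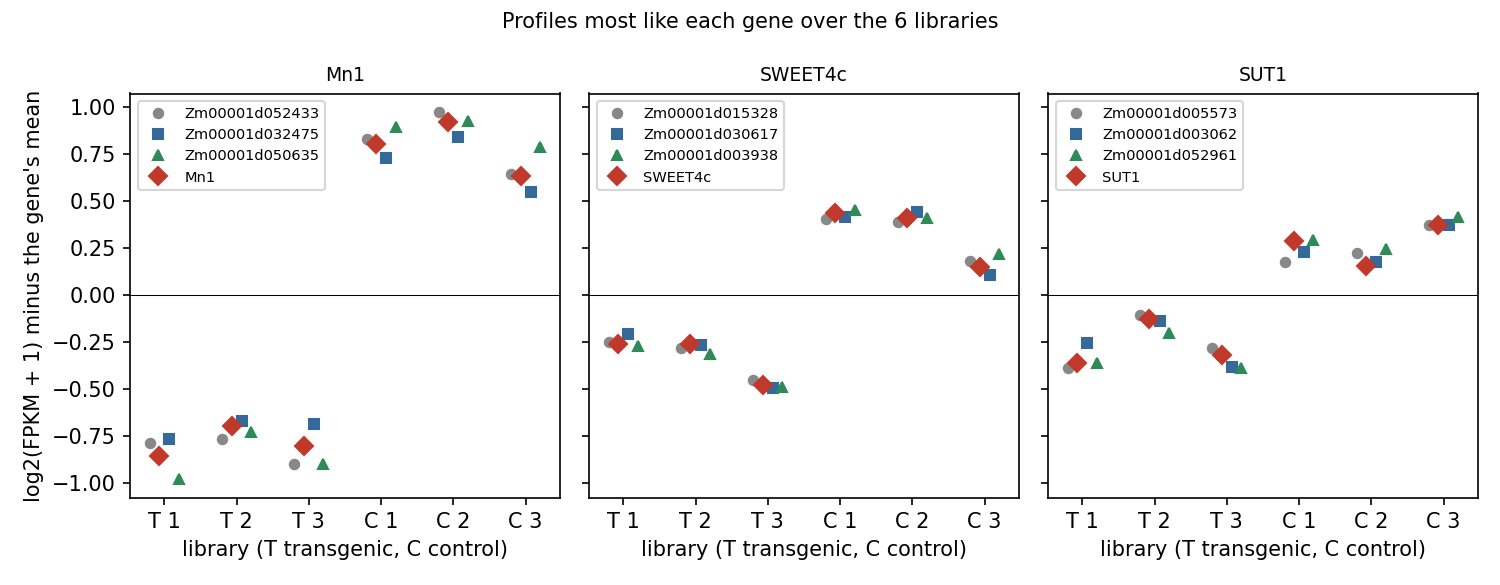
log2(FPKM + 1) minus each gene's own mean in the 6 libraries (T transgenic, C control, by replicate number) for Mn1, SWEET4c and SUT1 (red diamonds) and the 3 genes with the most similar profile for each (other symbols, named by ID). The y axis is shared, and the step between the groups is largest in the panel of Mn1, whose log2 fold change was -1.57.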

How the data were processed

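The authors deposited 1 table of FPKM values per library, rounded to 2 decimals, per the file headers. The submitters' processing notes name DESeq2 with no version or role. For the aligner, counting tool, genome build and annotation, nothing is given in the sources used here, and no coordinates are reported. Groups and replicate numbers came from the sample titles. The members and lists were chosen with earlier results of these data known.

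Values were taken as log2(FPKM + 1) and compared with limma 3.58.1 in R 4.3.3 (moderated variance with a mean trend, no covariate, 2-sided), over the 20514 genes that averaged 1 FPKM or more, with Benjamini-Hochberg adjustment. The model was tested on simulated data with independent normal noise. These data had no shift of the median gene and no rounding of low values, so they do not bear on genes near 1 FPKM. Exact permutation tests used scipy 1.17.1. The named genes were the members, SUS1, up to 3 genes within 10 ID numbers of each member by mean FPKM, and the 3 most alike profiles per member. A list of other sugar genes by symbol could not be tied to IDs and is not reported. No sequences are shown, since none were used here.

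Without total fragment counts, no counting interval or floor could be given. Relative depth was taken from the commonest ratio to control replicate 1 of values at 1 to 3 FPKM, searched from 0.4 to 2.5. It came to 1.00 to 1.02. Since the values are rounded to 2 decimals, ties can favour a ratio of 1, so this estimate does not establish equal depth. The series text speaks of biological replicates in each group. For replicates 1, 2 and 3, the deviations of the transgenic and the control library from their groups had correlations of 0.13, 0.12 and 0.33 over genes. Each was over 0.1, and the replicate numbers were treated as pairs in alternatives only. The main fit and the main permutation tests did not pair the libraries. The pairing rests on the values and not on a label, and transgenic replicate 1 correlated with control replicate 2 at 0.10 as well. The fit with the replicate number as a block was an alternative, beside other pseudocounts, filters, scalings, variance settings, sample weights and left-out libraries.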

Additional observations from a re-analysis of the deposited data

How the results depend on the processing

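Mn1 and SWEET4c stayed lower and past the threshold in all of their 19 and 20 alternatives on deposited values (log2 fold change -2.61 to -1.37 for Mn1 and -0.76 to -0.50 for SWEET4c) and in all 12 and 13 relative to the median gene. SUT1 stayed lower in all 19 alternatives but lost its call in 9 (log2 fold change from -0.85 to -0.40). Under median-ratio rescaling it was at -0.45 (limma, adjusted p = 0.0610), with values centred on the median gene at -0.40, with quantile normalization at -0.43, with the 20 most abundant genes left out of the sum at -0.44 and -0.47 without replicate 3 of both groups (limma, adjusted p = 0.125). Leaving out single libraries gave -0.61 to -0.49 (limma, adjusted p from 0.0408 to 0.0774). Relative to the median gene SUT1 passed in none of 12 (adjusted p from 0.0634 to 0.240). At a mean of at least 5 FPKM neither Mn1 nor SUT1 was tested. The ratio of SUT1 to SWEET4c changed sign when 1 FPKM was added to both values (log2 difference 0.12), and the other 5 ratios kept their direction, though the 3 that involve Mn1, and that of SUT1 to SUS1, shrank by over 1.5 times.

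With the replicate block 4469 genes were called, and Mn1 (limma, adjusted p = 0.000783), SWEET4c (limma, adjusted p = 0.000346) and SUT1 (limma, adjusted p = 0.0440) kept their calls; it changed no call of another named gene. Permuting within replicate numbers cannot give a p below 0.25. Leaving out single libraries gave 2308 to 3291 calls across all genes. With median-ratio rescaling 1290 genes were called higher and 1510 lower, with centring 1352 and 1438, with quantile normalization 1369 and 1440, and without the 20 most abundant genes 1399 and 1400, against 591 higher and 3316 lower on deposited values.

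Some uncalled neighbours changed sign. Zm00001d003784, Zm00001d015918 and Zm00001d027856 stayed lower in all alternatives, and Zm00001d003784 was called without the mean trend (limma, adjusted p = 0.0447). Zm00001d003773 was at 0.039 with median-ratio rescaling, 0.043 with centring, 0.042 with quantile normalization, 0.056 without the 20 most abundant genes and 0.047 without transgenic replicate 1 (-0.22 to 0.047 over single left-out libraries). Zm00001d027861 was at 0.14, 0.14, 0.13 and 0.16 under the same 4 scalings, 0.0018 with sample weights, and 0.0090 and 0.012 without transgenic or control replicate 1 (-0.026 to 0.012 over left-out libraries). Zm00001d015905 was at -0.0078, -0.044 and -0.039 without transgenic replicate 1, transgenic replicate 2 or control replicate 3 (-0.044 to 0.11 over left-out libraries). The cause was not tested. Mn1 and SUT1 lie near 1 FPKM, where few fragments limit precision.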
